A study of Homo sapiens with 12 samples.

Results

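From the 2656 mature miRNA names counted in this small RNA series, 5 that are ascribed to Alu elements or other repeats were chosen by name: hsa-miR-1285-3p, hsa-miR-1285-5p, hsa-miR-1303, hsa-miR-1273c and hsa-miR-619-5p, written below without the species prefix. All 5 had a row in each of the 12 libraries. They were picked with earlier results of these libraries known, among them the Ang over Con changes in exosomes, so those changes are described here without a test. The series asks which miRNAs of hypertrophic cardiomyocytes are altered in their exosomes. It holds 4 groups of 3 libraries: exosomes of AC16 cells named Ang, exosomes of AC16 cells named Con, AC16 cells named Ang and AC16 cells named Con. AC16 is an established human cardiomyocyte-derived line, and exosomes are small vesicles that cells release with RNA inside. The column headers of the Ang libraries read AngII. No source used here states the dose, the time of exposure or any difference in genotype between the groups. Cell RNA was prepared with the miRNeasy Micro kit and exosomal RNA with the exoRNeasy Maxi kit, so compartment and kit cannot be told apart.

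A miRNA is cut from a hairpin in a longer transcript, and its bases 2 to 8, the seed, pair with target mRNAs. Alu elements are primate-specific short repeats that lie in the introns and untranslated ends of very many human genes, and a hairpin that arose inside one has relatives wherever the repeat was inserted. A small RNA read assigned to such a name may therefore come from the hairpin or from a fragment of another RNA that carries the repeat, and the name alone does not say which. miR-1285-3p has been described in cultured human cells as a repressor of the p53 mRNA, and miR-619-5p as a name with long complementary stretches in many human mRNAs.

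RefSeq (GRCh38.p14) holds the mature sequences of 3 of the 5 names. They are printed because near copies of them in other RNAs bear on what the counts mean, with the seed in capitals.
miR-1285-3p: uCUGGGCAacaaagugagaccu
miR-1303: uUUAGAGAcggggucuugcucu
miR-1273c: gGCGACAAaacgagacccuguc
The 3 seeds differ from one another. The longest unbroken run of identical bases between any pair of these 3 was 6 bases. No other mature name with a sequence shared such a run of 12 or more bases with any of them, on either strand. Stretches broken by a mismatch were not counted. With a few mismatches, most of miR-1285-3p lines up with most of miR-1273c on the same strand, so these 2 are related in sequence. miR-1285-3p has 2 genomic copies, at chr2:70252933-70252954 and chr7:92204027-92204048, both on the minus strand. The chr7 hairpin, MIR1285-1, lies in an intron of KRIT1, a gene of endothelial junctions, and the chr2 hairpin, MIR1285-2, lies outside any gene annotated in GENCODE release 29. miR-1303 lies at chr5:154685827-154685848 on the plus strand, also outside any annotated gene. miR-1273c lies at chr6:154853369-154853390 on the plus strand, in an intron of TIAM2, an activator of the small GTPase Rac. The miR-619 hairpin lies at chr12:108836908-108837006 on the minus strand, in an intron of SSH1, a phosphatase of the actin-severing protein cofilin.

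All 3 of these sequences had far more near copies in other transcripts than most mature names. Mature sequences of 21 or more bases, 2003 names in all, were searched with up to 2 mismatches in 204813 GENCODE transcripts of 56840 genes, miRNA transcripts left out. miR-1303 had a near copy in transcripts of 308 genes on the sense strand and of 321 on the antisense strand. This strand sum of 629 was the third highest of any name. A gene with copies on both strands counts in both, so a strand sum can exceed the number of distinct genes. miR-1285-3p had 129 sense and 98 antisense, a sum of 227 and the fifth highest. miR-1273c had 23 sense and 31 antisense, a sum of 54. The median over all names searched was 0, the 95th percentile was 4, and 1236 names were in no gene. Exact copies were rare, with 1 sense and 1 antisense gene for miR-1285-3p and 0 for the other 2 on either strand. None of 35116 RefSeq promoters of 300 bases held an exact match to any of the 3 mature sequences, on either strand. Near copies were not searched in promoters, and exact copies were rare in transcripts too, so nothing is read from that result. The matches in transcripts are descriptions of the sequence and show no transcription of the copies in these cells. How many mismatches the counting allowed is not stated in the sources used here.

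**Figure D1:**
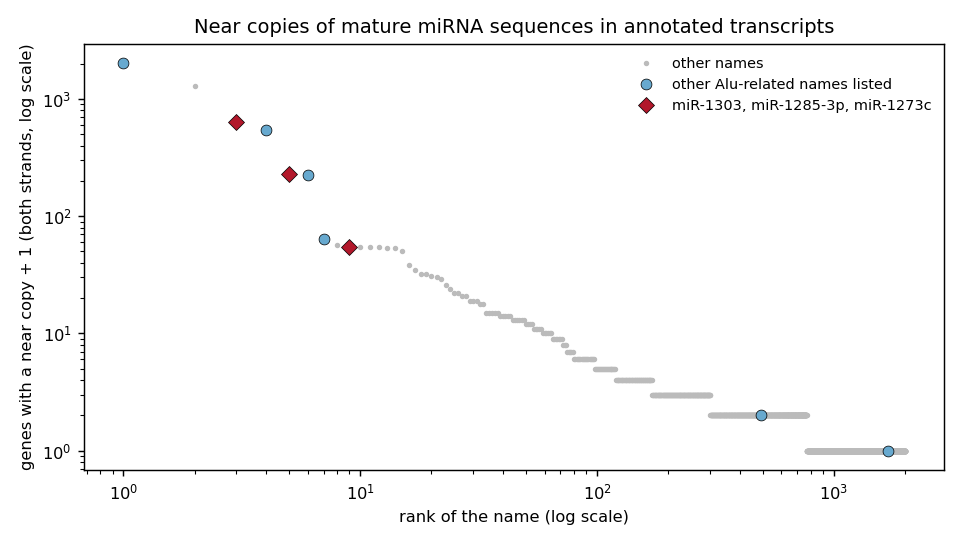
Strand sum of genes with a near copy (at most 2 mismatches, sense plus antisense genes, plus 1, log axis) against the rank of each of 2003 mature names (log axis). miR-1303 (sum 629), miR-1285-3p (227) and miR-1273c (54) sit at the far left, where 4 other Alu-related names also lie. miR-3929 (sum 1) and miR-619-3p (0) lie with the rest, and most names have a sum of 0 to 4.

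Of these repeat-derived names 4 were scarce and 1 was abundant. Levels are given in CPM, counts of unique molecular identifiers (UMIs) scaled by the library total, where 3 counts, taken as the floor, correspond to 2.91 to 7.25 CPM. miR-1285-3p had 12.9, 11.5 and 7.82 CPM in exosomes Ang, from 9, 11 and 8 UMIs, against 48.5, 64.2 and 75.2 CPM in exosomes Con, from 50, 57 and 73 UMIs. It had 34.7, 33.9 and 31.2 CPM in cells Ang, from 17, 14 and 16 UMIs, against 28.4, 27.1 and 25.9 CPM in cells Con, from 15, 14 and 11 UMIs. Exosomes Con were thus highest, then cells Ang, cells Con and exosomes Ang, and none of these 4 ranges overlapped its neighbour. Cells Ang and cells Con differed by few UMIs, with sums of 47 and 40 whose exact Poisson 95% intervals, 34.5 to 62.5 and 28.6 to 54.5, overlapped. These intervals cover counting error only.

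miR-1285-5p, from the other arm of the same hairpins, was near the floor in every library, with 4 to 16 UMIs. It had 5.74, 5.22 and 5.87 CPM in exosomes Ang, against 9.71, 14.6 and 16.5 CPM in exosomes Con. It had 12.2, 14.5 and 21.4 CPM in cells Ang, against 9.45, 13.6 and 14.1 CPM in cells Con. Exosomes Ang lay below the other 3 groups, whose ranges overlapped one another. The 3p count per 5p count within a library was 2.25, 2.20 and 1.33 in exosomes Ang, against 5, 4.38 and 4.56 in exosomes Con. In cells it was 2.83, 2.33 and 1.45 in Ang and 3, 2 and 1.83 in Con. The 3p arm was the larger in all 12 libraries, and the exosomes Con ratios lay above those of every other library.

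miR-1303 had 15.8, 26.1 and 31.3 CPM in exosomes Ang, from 11, 25 and 32 UMIs, against 48.5, 48.4 and 48.4 CPM in exosomes Con, from 50, 43 and 47 UMIs. It had 93.8, 70.1 and 83.8 CPM in cells Ang, from 46, 29 and 43 UMIs, against 47.3, 48.4 and 47.2 CPM in cells Con, from 25, 25 and 20 UMIs. Cells Ang were highest and exosomes Ang lowest, while exosomes Con and cells Con overlapped between them. The SD of 0.0907 CPM in exosomes Con was smaller than counting error, since the 140 UMIs of those 3 libraries carry an exact Poisson 95% interval of 118 to 165. Replicate 1 of exosomes Ang, at 15.8 CPM, stood below the other two of its group.

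miR-619-5p had 28.7, 34.5 and 43.0 CPM in exosomes Ang, from 20, 33 and 44 UMIs, against 54.4, 67.5 and 72.1 CPM in exosomes Con, from 56, 60 and 70 UMIs. It had 75.4, 87.1 and 83.8 CPM in cells Ang, against 70.0, 73.6 and 101 CPM in cells Con, from 36 to 43 UMIs per library. Exosomes Ang lay below every other group, the range of exosomes Con overlapped that of cells Con and lay below that of cells Ang, and the ranges of the cell groups overlapped.

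miR-1273c, the abundant member, had 929.6, 889 and 909.5 CPM in exosomes Ang, from 648, 851 and 930 UMIs, against 589, 524 and 500 CPM in exosomes Con, from 607, 466 and 486 UMIs. It had 822, 769 and 876 CPM in cells Ang, against 841, 870 and 932 CPM in cells Con, from 318 to 449 UMIs per library. Here exosomes Con were the low group, below every library of the other 3, the reverse of their place for miR-1285-3p. Exosomes Ang overlapped cells Con and lay above cells Ang, whose range overlapped that of cells Con.

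**Figure D2:**
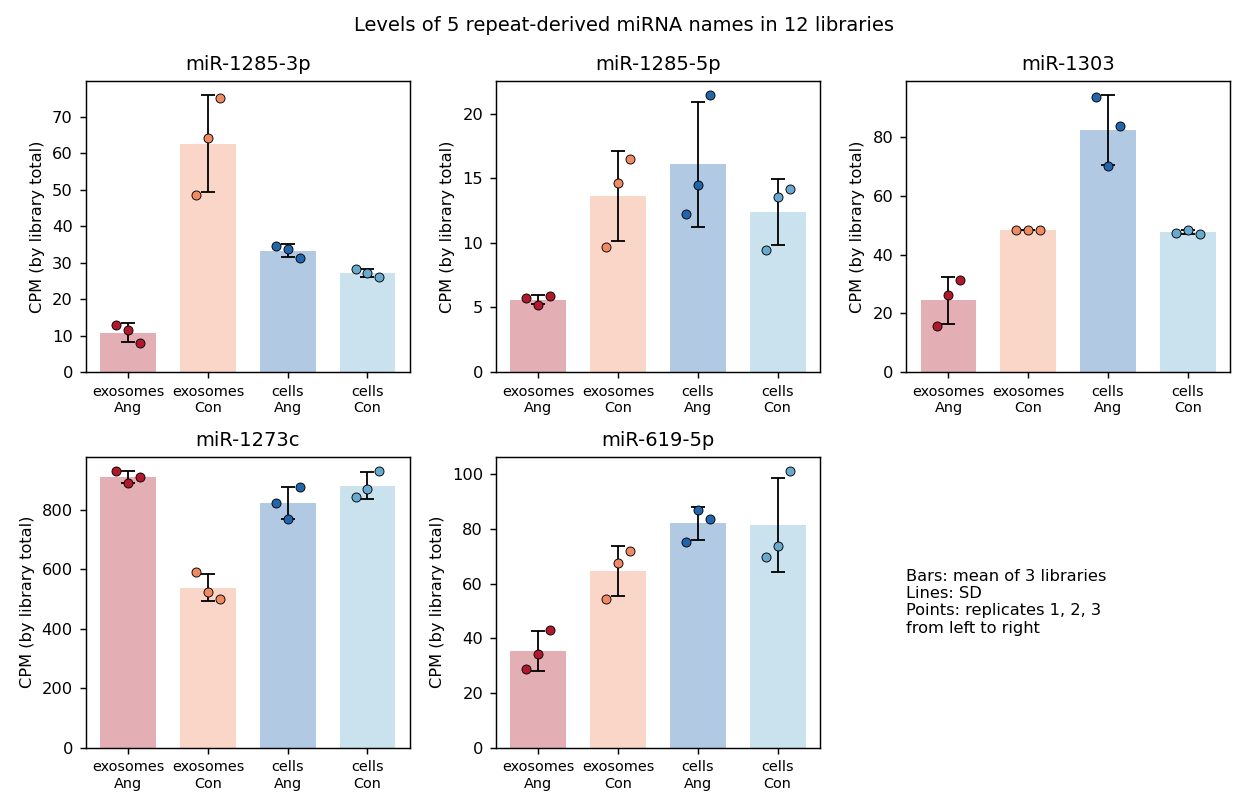
CPM by library total of each of the 5 names (vertical axis, its own scale per panel) in exosomes Ang, exosomes Con, cells Ang and cells Con. Bars are means of 3 libraries, lines are SD and points are libraries. Exosomes Ang are the lowest group for 4 of the names, and exosomes Con are the lowest for miR-1273c.

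The 5 names together took 0.0985 ± 0.0017% of the UMIs in exosomes Ang, against 0.0727 ± 0.0020% in exosomes Con (SD, n = 3 each). In cells they took 0.104 ± 0.0061% in Ang and 0.105 ± 0.0064% in Con (SD, n = 3 each). miR-1273c made up 92.3 ± 1.25% of their UMIs in exosomes Ang, against 73.9 ± 4.23% in exosomes Con. In cells it made up 79.3 ± 0.509% in Ang and 83.9 ± 0.690% in Con. The summed level of the 5 names is therefore mostly a measure of miR-1273c.

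Libraries held 697049 to 1029883 UMIs in exosomes and 413513 to 528844 in cells. In exosomes, miR-552-3p and miR-3972 each took 13.4 to 15.6% of the UMIs in Ang and 8.32 to 8.90% in Con, against under 1% in cells. TMM scales libraries on the premise that most names do not differ between them. It gave factors of 0.496 to 0.516 in exosomes Ang and 0.595 to 0.602 in exosomes Con. In cells the factors were 1.82 to 1.93 in Ang and 1.75 to 1.80 in Con. CPM and TMM comparisons between compartments therefore differ by a large constant. The part of miR-552-3p and miR-3972 in that constant was not tested. Between compartments 83.3% of names were called in Con, so the premise of TMM may not hold there. Replicate 1 of exosomes Con and replicate 2 of cells Ang stood apart from the other two of their groups. Chi-square divided by its degrees of freedom, over names, was 8.04 and 13.0 for that exosome library, against 2.16 between the other two, and 4.996 and 5.44 for that cell library, against 2.25. The 7 muscle miRNAs listed, which should mark a cardiomyocyte-derived line, summed to 57.4 to 71.4 CPM in exosomes Ang and 73.8 to 90.6 in exosomes Con, with up to 3 of the 7 at 0 in a library. In cells they summed to 285 to 326 CPM in Ang and 344 to 376 in Con, with none at 0. The 7 blood-cell miRNAs listed summed to 346 to 643 CPM in exosomes Ang and 552 to 1279 in exosomes Con, with up to 3 at 0. In cells the blood list summed to 2041 to 6895 CPM in Ang and 2134 to 2374 in Con, with none at 0. The liver miRNA miR-122-5p was at 4.30 to 18.8 CPM in exosomes Ang and 0 to 9.69 in cells Con. In exosomes Con it was at 8.74, 123 and 156 CPM in replicate order, and the blood list at 552, 1194 and 1279. In cells Ang it was at 8.15, 181 and 7.80 CPM, and the blood list at 2041, 6895 and 2172. Replicates 2 and 3 of exosomes Con and replicate 2 of cells Ang thus held most of both. The part of these other cell types in the members' values was not tested.

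In exosomes, 4 of the names stood lower in Ang than in Con and miR-1273c stood higher. The CPM ranges did not overlap for any of the 5. Over all 1199 tested names 52.4% had ranges that did not overlap, 36.3% below and 16.1% above, and edgeR called 34%; since this contrast was known when the members were chosen, nothing is read from their count. In a bulk library, fewer vesicles carrying a miRNA and less of it per vesicle cannot be told apart. miR-1285-3p averaged 10.7 ± 2.62 CPM in exosomes Ang and 62.6 ± 13.4 CPM in exosomes Con (SD, n = 3 each), and the edgeR estimate on the TMM scale was 5.24-fold lower, a log2 change of -2.39 (SE 0.25). This was the fifth lowest of the 1199 changes. miR-1303 averaged 24.4 ± 7.90 CPM in exosomes Ang and 48.4 ± 0.0907 CPM in exosomes Con (SD, n = 3 each), with a log2 change of -0.78 (SE 0.22). miR-619-5p averaged 35.4 ± 7.21 CPM in exosomes Ang and 64.7 ± 9.19 CPM in exosomes Con (SD, n = 3 each), with a log2 change of -0.68 (SE 0.18).

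miR-1273c averaged 909 ± 20.4 CPM in exosomes Ang and 538 ± 46.0 CPM in exosomes Con (SD, n = 3 each), with a log2 change of 0.92 (SE 0.09), or 1.89-fold higher. miR-1285-5p averaged 5.61 ± 0.342 CPM in exosomes Ang and 13.6 ± 3.50 CPM in exosomes Con (SD, n = 3 each). It did not pass the filter on low counts, and a fit with no filter gave a log2 change of -1.15 (SE 0.38). The median change of all tested names was -0.05 on the same log2 scale. Without replicate 1 of exosomes Con, the log2 changes were -2.53 for miR-1285-3p, -0.74 for miR-1303, -0.76 for miR-619-5p and 1.02 for miR-1273c. Over the 6 fits that each left out a library they ran, in that order, from -2.53 to -2.18, -0.997 to -0.589, -0.842 to -0.566 and 0.843 to 1.02. DESeq2 gave -2.35 (SE 0.45), -0.76 (SE 0.40), -0.64 (SE 0.34) and 0.96 (SE 0.11), with larger SEs than edgeR.

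In cells, the same treatment name gave a called change for 1 of the 4 members tested, miR-1303. Over all names, 6.56% of 1630 were called in either direction and 2.76% higher. miR-1303 averaged 82.6 ± 11.9 CPM in cells Ang and 47.6 ± 0.712 CPM in cells Con (SD, n = 3 each), higher in 3 of 3 Ang libraries. It rose with a log2 change of 0.78 (SE 0.19; edgeR quasi-likelihood test, Benjamini-Hochberg adjusted p = 0.0205), or 1.72-fold. The SD in cells Con was smaller than counting error, as its 70 UMIs carry an exact Poisson 95% interval of 54.6 to 88.4. The edgeR SE and p of miR-1303 may therefore be too small. The call held in 1 of the 6 fits that left out a library, the one without replicate 2 of cells Ang, and was lost without any other library, with adjusted p up to 0.102 and log2 changes of 0.69 to 0.87. DESeq2 gave a log2 change of 0.77 (SE 0.31), an unadjusted p of 0.0127 and no adjusted p.

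miR-1285-3p averaged 33.2 ± 1.81 CPM in cells Ang and 27.1 ± 1.21 CPM in cells Con (SD, n = 3 each), with a log2 change of 0.27 (SE 0.27) that did not pass (edgeR adjusted p = 0.709). Its CPM ranges did not overlap, nor did those of miR-1303, both with cells Ang above. Over all tested names 22.4% had ranges that did not overlap, 12.5% with cells Ang above. miR-1273c averaged 822 ± 53.2 CPM in cells Ang and 881 ± 46.0 CPM in cells Con (SD, n = 3 each), with a log2 change of -0.11 (SE 0.08; edgeR adjusted p = 0.529). miR-619-5p averaged 82.1 ± 6.0 CPM in cells Ang and 81.7 ± 17.2 CPM in cells Con (SD, n = 3 each), with a log2 change of 0.01 (SE 0.18; edgeR adjusted p = 0.991) whose sign changed with the scaling. miR-1285-5p averaged 16.1 ± 4.80 CPM in cells Ang and 12.4 ± 2.56 CPM in cells Con (SD, n = 3 each) and failed the filter. The median over the 4 tested members was 0.14, against 0.02 over all tested names. These p-values measure the spread between these libraries, since no source says that they came from separate cultures.

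**Figure D3:**
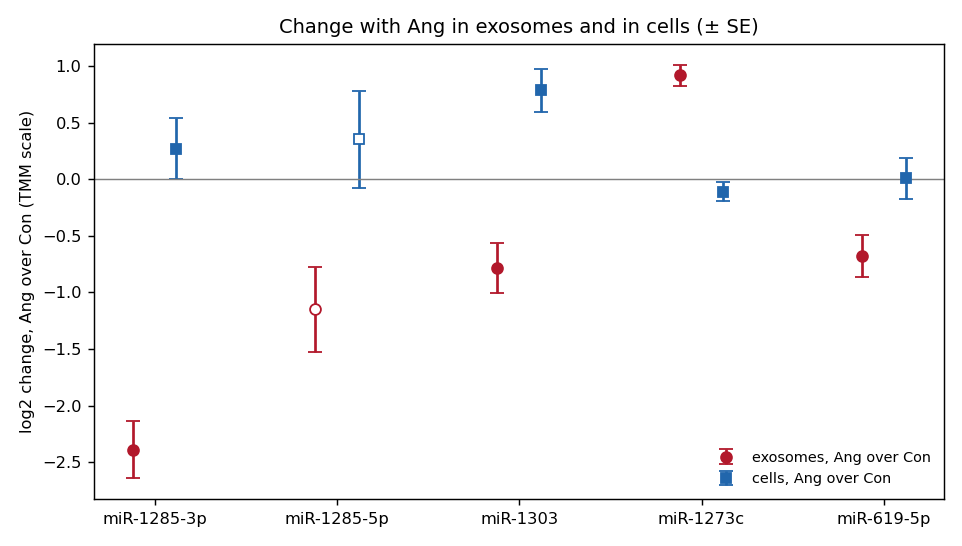
Log2 change, Ang over Con, on the TMM scale in exosomes (circles) and in cells (squares), with SE from 3 libraries against 3. Open symbols mark miR-1285-5p, which failed the filter and comes from a fit with no filter. miR-1285-3p at -2.39 and miR-1303 at -0.78 in exosomes lie opposite in sign to 0.27 and 0.78 in cells, and miR-1273c at 0.92 lies opposite to -0.11. Of these cell changes only that of miR-1303 was called, so the sign of the others is not established.

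The change in exosomes minus the change in cells, fitted to all 12 libraries, was -2.53 for miR-1285-3p (log2, SE 0.37) and -1.42 for miR-1303 (SE 0.29). It was 1.17 for miR-1273c (SE 0.12) and -0.54 for miR-619-5p (SE 0.27), or -0.86 for miR-619-5p with library totals. Over all 1835 names tested, 15.1% passed the threshold for this difference. The members' differences contain the exosome contrast and are descriptions. miR-1303 had changes of opposite sign, -0.78 in exosomes and 0.78 in cells in the 2 separate TMM fits. Their near equal size rests on the scaling, as library totals gave -0.95 and 0.80.

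Set against cells of the same treatment name, all 5 members were higher in exosomes in Con on the TMM scale. There, 83.3% of 1710 names were called, 39.2% higher and 44.2% lower, so a call by itself is common. The exosome libraries here are those whose levels were known when the members were chosen, so these p-values and the order of the members are not independent of that choice. miR-1285-3p had the largest difference of the 5, a log2 value of 2.70 (SE 0.23; edgeR adjusted p = 9.74e-07). The others were 1.63 for miR-1285-5p (SE 0.33; edgeR adjusted p = 0.000798), 1.53 for miR-1303 (SE 0.16; edgeR adjusted p = 5.48e-06), 1.19 for miR-619-5p (SE 0.19; edgeR adjusted p = 0.000134) and 0.80 for miR-1273c (SE 0.09; edgeR adjusted p = 1.31e-05). The median over all tested names was -0.27.

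These directions rest on the scaling. With library totals alone, the median of all names moved to -1.78 and the members' log2 differences became 1.19 for miR-1285-3p, 0.14 for miR-1285-5p, 0.02 for miR-1303, -0.32 for miR-619-5p and -0.71 for miR-1273c. By CPM, exosomes Con lay above cells Con in 3 of 3 libraries for miR-1285-3p and below them for miR-1273c, and the other 3 overlapped. Ranges that did not overlap were found for 89.1% of all names, with exosomes above for 21% and below for 68.1%. Relative to the median of all tested names the members stood 2.97, 1.90, 1.80, 1.46 and 1.07 above it with TMM, for miR-1285-3p, miR-1285-5p, miR-1303, miR-619-5p and miR-1273c in turn. With library totals the same 5 values were 2.97, 1.91, 1.80, 1.46 and 1.07. A change of scaling moves all names by nearly the same amount, so this match was fixed in advance and adds no evidence. Without replicate 1 of exosomes Con, miR-1285-3p differed by 2.86 and miR-1273c by 0.73 on the TMM scale.

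In Ang, the order of the members was another one, and the limit stated for the p-values and order in Con holds here too. miR-1273c had the largest exosome over cell difference, a log2 value of 2.03 (SE 0.09; edgeR adjusted p = 9.72e-13), and miR-619-5p was also higher at 0.70 (SE 0.19; edgeR adjusted p = 0.00276). miR-1285-3p at 0.22 (SE 0.30; edgeR adjusted p = 0.551) and miR-1303 at 0.17 (SE 0.23; edgeR adjusted p = 0.513) did not pass. miR-1285-5p failed the filter. Over all names 83.3% of 1627 were called, 38.2% higher, with a median of -0.31. With library totals the median of all names was -2.19, and the members' values became 0.14 for miR-1273c, -1.18 for miR-619-5p, -1.65 for miR-1285-3p and -1.71 for miR-1303. Above the median of all names on the TMM scale they stood 2.35, 1.01, 0.53 and 0.48, in that order. The shift between the Con and the Ang values, from the same 12 libraries, restates the Ang over Con changes in exosomes and in cells given above and adds no evidence to them.

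**Figure D4:**
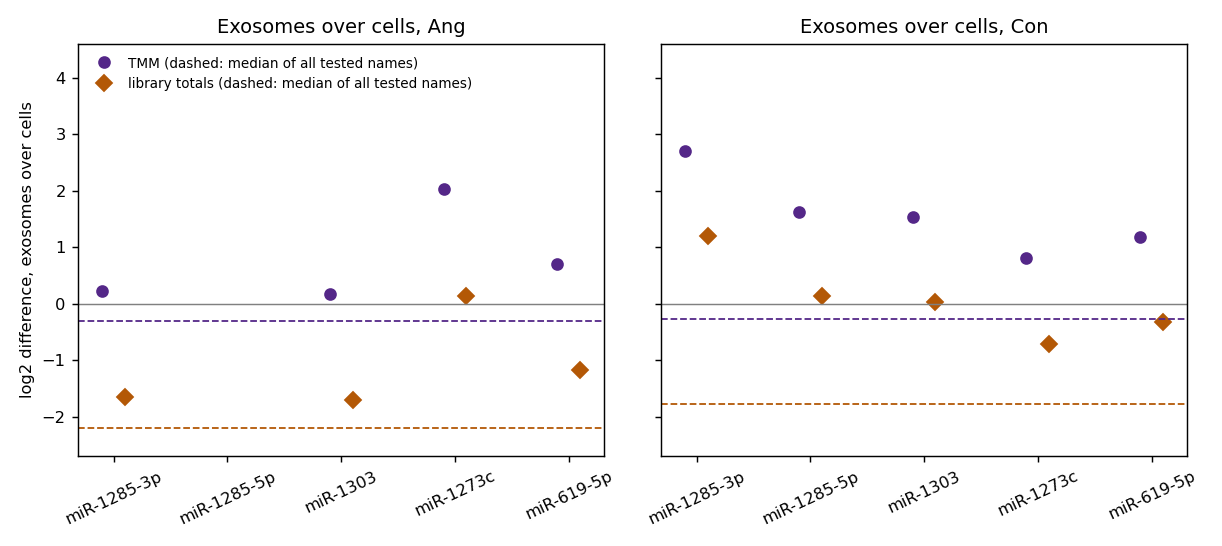
Log2 difference, exosomes over cells, in Ang (left) and Con (right) with TMM scaling (circles) and with library totals (diamonds), 3 libraries per group. Dashed lines are the median of all tested names under each scaling. miR-1285-5p was not tested in Ang. Every member plotted lies above the dashed line of its scaling, with miR-1285-3p highest in Con and miR-1273c highest in Ang. The height above that line is nearly the same under any scaling by construction.

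Other names ascribed to Alu elements did not move in 1 direction with Ang. Of 19 such names listed from general knowledge, 9 had a row. The list was drawn up with earlier results of these libraries known, and the names given are mainly those with the lowest p. The p-values printed for them here and below are not independent of those choices. In exosomes, 8 were tested, of which 2 rose and 4 fell, against 17% of all names in each direction, and their median log2 change was -0.41. With library totals 1 rose and 5 fell, against 151 and 319 of 1199 names. DESeq2 called 1 higher and 3 lower, against 177 and 116 of 1199 names. miR-1273h-3p, a name of the same numbered group as miR-1273c, has the sequence that follows.
miR-1273h-3p: cUGCAGACucgaccucccaggc
It lies at chr16:24203186-24203207 on the plus strand, and its seed differs from that of miR-1273c. It had 703, 608 and 678 CPM in exosomes Ang, against 378, 347 and 379 CPM in exosomes Con, and rose 2.02-fold (log2 1.01, SE 0.09; edgeR adjusted p = 2.65e-05). The strand sum of genes with a near copy was 222 for miR-1273h-3p, against 54 for miR-1273c. The other arm of the same hairpin, miR-1273h-5p, named after its values were seen, averaged 14.8 ± 5.16 CPM in exosomes Ang and 26.6 ± 0.790 CPM in exosomes Con (SD, n = 3 each), with a log2 change of -0.73 (SE 0.26) that did not pass (edgeR adjusted p = 0.0519, and 0.0216 with library totals). The arms thus lay on opposite sides of 0.

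miR-3929, with a near copy in 1 gene, had 35.9, 39.7 and 54.8 CPM in exosomes Ang, against 111, 82.2 and 93.7 CPM in exosomes Con, and fell with a log2 change of -0.96 (SE 0.20; edgeR adjusted p = 0.00391). miR-1268a had 271, 243 and 267 CPM in exosomes Ang, against 385, 388 and 413 CPM in exosomes Con, with a log2 change of -0.44 (edgeR adjusted p = 0.00389). miR-1268b averaged 276 ± 23.3 CPM in exosomes Ang and 403 ± 11.1 CPM in exosomes Con (SD, n = 3 each), with a log2 change of -0.38 (edgeR adjusted p = 0.00838). Reads of miR-1268a and miR-1268b, near-identical names, may have been split between them. The call of miR-1268b was lost without replicate 2 of exosomes Ang (edgeR adjusted p = 0.0540).

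In cells, 6 of the Alu-related names were tested, and 1 was called, against 6.56% of all tested names. miR-5585-5p fell with a log2 change of -0.34 (SE 0.09; edgeR adjusted p = 0.0314), at 1209, 1214 and 1129 CPM in cells Ang, against 1263, 1568 and 1634 CPM in cells Con. The call was lost without replicate 1 or replicate 3 of cells Ang, and without replicate 2 or replicate 3 of cells Con (edgeR adjusted p = 0.0767 to 0.184). In exosomes, given after the values were seen, miR-5585-5p stood higher in Ang (log2 0.59, SE 0.17). Its other arm, miR-5585-3p, stood lower there (log2 -0.94, SE 0.27). Names ascribed to the older LINE2 repeats served as a further list, also drawn up with earlier results known. In cells, edgeR called 0 of 5 of them, with 0 at an unadjusted p under 0.05 and 0 called by DESeq2. In exosomes, edgeR called 0 of the 2 tested, with 0 at an unadjusted p under 0.05 and 0 called by DESeq2. Between compartments, 5 of 6 LINE2 names were lower in exosomes than in cells in Con, and 5 of 6 in Ang, against 44.2% and 45.1% of all tested names called lower. DESeq2 called 4 of the 6 lower in each, against 725 of 1710 names in Con and 662 of 1627 in Ang. Library totals called 6 of 6 lower in each, against 1151 of 1710 and 1173 of 1627. Of 8 Alu-related names, 4 were higher and 1 lower in exosomes in Con, against 39.2% and 44.2% of all tested names. In Ang, 3 were higher and 1 lower, against 38.2% and 45.1%. Library totals gave 3 higher and 4 lower in Con, against 349 and 1151 of 1710 names. In Ang they gave 2 higher and 5 lower, against 296 and 1173 of 1627. With TMM, the median log2 difference in Con was -1.65 for the LINE2 list and 0.68 for the Alu list, against -0.27 over all names. With library totals these medians were -3.12, -0.83 and -1.78 in the same order.

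Of all names searched, 14 had a strand sum of 50 or more genes with a near copy, a class defined after the values were seen. A gene can count on each strand, so a name of this class may have fewer than 50 distinct genes. Of these, 8 were tested in exosomes, 3 of them members, and the median log2 change of the 8 was 0.04, against -0.05 over all tested names. Those of the class that are no members had a median of 0.46 over 5 names. Their values ran from -0.94 for miR-5585-3p, with a strand sum of 2007, to 1.01 for miR-1273h-3p, so they did not move in 1 direction. Among the members, miR-1303 with a strand sum of 629 stood at -0.78, miR-1285-3p with 227 at -2.39 and miR-1273c with 54 at 0.92.

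The seed of miR-1285-3p occurs in 3 other mature names, named here after their values were seen. Their sequences share the capitals and little else.
miR-3187-5p: cCUGGGCAgcguguggcugaagg
miR-5189-5p: uCUGGGCAcaggcggauggacagg
miR-6860: aCUGGGCAgggcuguggugagu
They lie at chr19:813590-813612, chr16:88468943-88468966 and chr11:67045683-67045704, all on the plus strand. miR-3187-5p averaged 3888 ± 157 CPM in exosomes Ang and 2927 ± 34.2 CPM in exosomes Con (SD, n = 3 each), a log2 change of 0.57 (SE 0.06). miR-5189-5p averaged 44.9 ± 7.71 CPM in exosomes Ang and 80.3 ± 16.5 CPM in exosomes Con (SD, n = 3 each), a log2 change of -0.66 (SE 0.20). miR-6860 averaged 607 ± 34.98 CPM in exosomes Ang and 591 ± 37.5 CPM in exosomes Con (SD, n = 3 each), a log2 change of 0.20 (SE 0.09). Of the names with this seed, the most abundant was therefore higher in exosomes Ang, while miR-1285-3p was lower. No other mature name held the seed of miR-1303 or that of miR-1273c.

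The names whose levels ran most like each member were found by Pearson's r of log2(CPM + 1) over the 12 libraries, among 1820 names with a mean of 10 CPM or more. The libraries share depth, kit and treatment within the 4 groups, so r describes mostly the group means. miR-1285-3p was most like miR-450a-2-3p (r = 0.949), miR-10400-3p (0.948) and miR-6861-5p (0.947). miR-450a-2-3p averaged 21.7 CPM in exosomes Ang and 173 in exosomes Con, and 111 in cells Ang and 78.4 in cells Con, the same order of groups as miR-1285-3p. miR-1273c was most like miR-3187-5p (0.902), which has the seed of miR-1285-3p, then miR-654-5p (0.899) and miR-4470 (0.898). miR-1303 was most like miR-10398-5p (0.908), miR-6829-3p (0.903) and miR-503-3p (0.901). miR-619-5p was most like miR-5688 (0.985), let-7i-3p (0.943) and miR-6499-5p (0.937), and miR-1285-5p like miR-671-5p (0.920), miR-619-5p (0.883) and miR-650 (0.870). Between members, r was 0.768 for the arms of miR-1285, 0.851 for miR-1303 with miR-619-5p and -0.812 for miR-1285-3p with miR-1273c.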

How the data were processed

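Per the file headers, the deposited files of the 12 libraries hold raw UMI counts, 1 row for each mature miRNA. Per the submitters' processing notes, cutadapt and GRCh38 were used; no source used here names the aligner, the annotation or the counter. CPM used library totals. The 76 names absent from exosome files (at most 20 counts in a cell library) were taken as 0. Each pair of groups was fitted with edgeR 4.0.16 (R 4.3.3; filterByExpr, TMM, quasi-likelihood test, two-sided, Benjamini-Hochberg over all tested names, threshold 0.05), and the interaction to all 12 libraries; the fit was tested on simulated data. All members are named, and of each list at most 4 past the threshold with the lowest p. The members and lists were chosen with earlier results of these data known. Alternatives were RLE factors, library totals, DESeq2 1.42.0, no filter, replicate block, all libraries in 1 fit and leaving out each library. Hairpins came from GENCODE 29 and mature sequences, matched by name, from RefSeq (3 of 5 members). Poisson intervals are exact at 95%.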

Additional observations from a re-analysis of the deposited data

Results flagged for a closer look

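The difference between compartments in the effect of Ang (exosomes minus cells), in the fit to all 12 libraries, was flagged for 3 members. These were miR-1285-3p (log2 -2.53), miR-1303 (-1.42) and miR-1273c (1.17). Over all names 15.1% of 1835 passed the adjusted threshold that sets this flag, and nothing is read from the members' flags. These differences contain the exosome contrast known when the members were chosen, so they are values and not independent evidence. In the 12 fits that each left out a library they ran from -2.72 to -2.36 for miR-1285-3p, from -1.67 to -1.25 for miR-1303 and from 1.11 to 1.21 for miR-1273c. For miR-619-5p the difference was -0.54, or -0.86 with library totals, and miR-1285-5p was not tested.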

How the results depend on the processing

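The number of names called in cells Ang against Con was 107 and ran from 38 to 97 over the fits without 1 library, with 70 without replicate 1 of cells Ang and 38 without replicate 2 or replicate 3 of cells Con. Replicate numbers did not pair the libraries (correlations of same-numbered deviations of -0.05 to 0.12), and the replicate block gave 132 calls in cells, 398 in exosomes (408 without the block) and 252 for the interaction (278 without). The log2 change of miR-619-5p in cells, 0.01, became -0.0036 with RLE factors, -0.0091 with DESeq2, -0.0217 with no filter, -0.0026 with the replicate block and -0.0486 with all libraries in the fit, and ran from -0.0899 to 0.16 without 1 library. With library totals, exosomes over cells turned in sign in Con for miR-1273c (-0.71) and miR-619-5p (-0.32), and in Ang for miR-1285-3p (-1.65), miR-1303 (-1.71) and miR-619-5p (-1.18). That setting carries no factor for differences in composition between libraries. Its calls were 349 higher and 1151 lower in Con (670 and 755 with TMM) and 296 and 1173 in Ang (621 and 734). For the interaction they were 93 and 221 (183 and 95 with TMM, 250 and 77 with RLE factors, 238 and 64 with DESeq2). In exosomes Ang against Con the 204 higher and 204 lower calls became 151 and 319 with library totals, 177 and 116 with DESeq2, and 248 and 161 with all libraries in the fit. In cells the 45 higher and 62 lower calls became 29 and 65 in that last fit. miR-1303 in exosomes over cells in Ang ran from -0.0082 (without replicate 3 of exosomes Ang) to 0.42 without 1 library; the cause was not tested. miR-1285-5p passed the filter in 3 of 6 such fits of exosomes over cells in Con, all past the threshold. Counts of 4 to 16 UMIs limit miR-1285-5p, and 8 to 11 UMIs limit miR-1285-3p in exosomes Ang.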
